A study of Mus musculus with 2 samples.

Results

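The SOX genes described here are 10 members of the family of transcription factors related to the testis-determining gene Sry: Sox2, Sox4, Sox5, Sox6, Sox7, Sox9, Sox11, Sox12, Sox17 and Sox18. They were taken by name, matched to the mouse annotation by gene identifier, and found in the tables of both libraries, as 10 of 43346 mouse genes. The other 10 mouse SOX genes are given for comparison, so that the whole family comes to 20 genes. The tissue was lung of strain B6NCrl mouse embryos at embryonic day 14.5, and its RNA was sequenced as 2 libraries of 1 group with no treatment and no second condition. Per the labels, the libraries are biological replicates 1 and 2, and each was made from 10.0 ng of total RNA longer than 200 nt with spike-in RNA added. The labels call each sample both a single lung of 1 pup and a pool of both sexes, and give both samples the same donor identifier and different collection days, and how many animals each library holds is not clear from them. Every p-value below therefore compares only these 2 libraries. The exact binomial test, which gave most of them, allows for the sampling of reads and not for variation between animals.

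SOX proteins bind DNA through an HMG box, a domain that fits into the minor groove and bends the helix. The family is divided by the sequence of that box into subgroups, written SoxA to SoxH, whose members often share expression and stand in for each other. In the developing lung, Sox2 marks the epithelium of the conducting airways and Sox9 the epithelium of the branching tips, while Sox9 also acts with Sox5 and Sox6 in the cartilage of the trachea and bronchi. Sox7, Sox17 and Sox18 form the SoxF subgroup of blood and lymph vessels, and Sox4, Sox11 and Sox12 form the SoxC subgroup of progenitor cells in many tissues.

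The HMG box is the domain that the family shares, and its bases show how alike the members are where reads could fit more than 1 gene. It was read as the same 69 codons (207 bases) of each gene in the GENCODE M21 transcripts on GRCm38, the same build as the mm10 of the deposited tables. Between members of different subgroups, 38 pairs, the identity of these bases ran from 55.6% to 76.3%, with a median of 64.98%. Among the 7 pairs within a subgroup it ran from 77.8% to 90.3%, with a median of 84.1%. The 3 pairs below are shown because each has the most alike box among the members of its subgroup (SoxC, SoxD and SoxF), each read 5′ to 3′ on the coding strand, with the longest identical stretch of the pair within the box in capitals.
Sox4 (chr13:28952641-28952847, minus strand): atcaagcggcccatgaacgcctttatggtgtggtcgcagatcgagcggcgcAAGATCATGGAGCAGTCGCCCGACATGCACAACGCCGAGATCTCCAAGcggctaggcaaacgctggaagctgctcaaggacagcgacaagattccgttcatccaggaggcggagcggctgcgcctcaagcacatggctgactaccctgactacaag
Sox11 (chr12:27342058-27342264, minus strand): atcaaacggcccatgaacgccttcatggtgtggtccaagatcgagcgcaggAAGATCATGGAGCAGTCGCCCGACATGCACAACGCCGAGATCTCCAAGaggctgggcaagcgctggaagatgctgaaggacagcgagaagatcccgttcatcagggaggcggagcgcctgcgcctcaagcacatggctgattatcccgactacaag
Sox5 (chr6:143835312-143841279, minus strand): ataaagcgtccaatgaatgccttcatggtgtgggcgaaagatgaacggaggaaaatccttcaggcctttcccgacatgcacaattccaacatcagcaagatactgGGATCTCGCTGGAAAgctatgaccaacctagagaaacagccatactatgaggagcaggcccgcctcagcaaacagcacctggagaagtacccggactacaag
Sox6 (chr7:115486664-115489768, minus strand): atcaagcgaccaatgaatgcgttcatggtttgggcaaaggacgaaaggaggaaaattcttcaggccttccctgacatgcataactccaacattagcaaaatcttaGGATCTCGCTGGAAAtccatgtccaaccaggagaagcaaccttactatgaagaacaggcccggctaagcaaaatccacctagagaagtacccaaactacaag
Sox17 (chr1:4492568-4493205, minus strand): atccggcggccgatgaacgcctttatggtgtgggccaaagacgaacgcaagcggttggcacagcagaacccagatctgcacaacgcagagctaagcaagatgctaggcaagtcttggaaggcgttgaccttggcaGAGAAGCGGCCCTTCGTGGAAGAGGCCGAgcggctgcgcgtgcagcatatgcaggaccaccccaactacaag
Sox18 (chr2:181670896-181671287, minus strand): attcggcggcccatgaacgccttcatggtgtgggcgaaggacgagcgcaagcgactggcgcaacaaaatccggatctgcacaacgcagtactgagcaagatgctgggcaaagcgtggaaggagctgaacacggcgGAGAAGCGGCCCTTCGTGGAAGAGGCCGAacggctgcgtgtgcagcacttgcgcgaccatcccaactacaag
The box of Sox4 and of Sox11 lies in 1 exon, and in the other 4 genes shown an intron falls within the printed span and is left out of the bases. The shared stretch within the box was 48 bases for Sox4 and Sox11, 29 for Sox17 and Sox18, and 15 for Sox5 and Sox6. Over whole transcripts it was 23 bases for Sox5 and Sox6 and no longer than in the box for the other pairs shown. No pair among the 45 pairs of members shared an identical stretch of 100 bases anywhere in their annotated transcripts, and the longest found was the 48 bases printed for Sox4 and Sox11. The offset between length and effective length in the deposited tables was 99 nt, as a sequence of 100 nt would give. The deposited posterior SD of the count, a measure of how firmly reads could be assigned to the gene, was 0 in both libraries for every member other than Sox4, Sox5 and Sox17.

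The summed expected count, an estimated number of reads per gene that need not be whole, was 33601136 in replicate 1 and 34535168 in replicate 2, of which spike-ins took 4.94% and 3.96%. TPM, a level per unit of transcript length, reached 1 in both libraries for 12637 of 21474 protein-coding genes (58.9%), and the median protein-coding gene stood at 4.10 TPM. Markers of lung were present, with all 13 genes of the distal tip list and all 10 of the lung mesenchyme list at 1 TPM or more in both libraries. Replicate 1 stood apart in heart muscle RNA: the sum over the 14 heart muscle genes fell from 748 TPM there to 141 TPM in replicate 2. By the exact binomial test described below, 11 of the 13 tested were called lower in replicate 2 at 2-fold or more, against 0.780% of all genes tested. The 8 liver genes went the other way, from a sum of 4.47 to 10.5 TPM. Of the 4 tested, Afp and Apoa1 were called higher, against 0.356% of all genes tested. The part of either in the values of the SOX genes was not tested. Levels in bulk tissue do not tell fewer cells of a type from less RNA per cell.

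All 10 members were above 1 TPM in both libraries, with a median level of 28.9 TPM against the 4.10 TPM of protein-coding genes, and a span of 22.3-fold from Sox2 at 3.28 TPM to Sox4 at 73.1 TPM. In order of mean level they ran Sox4, Sox9, Sox18, Sox11, Sox17, Sox7, Sox5, Sox12, Sox6 and Sox2. The replicate ranges of Sox5 and Sox12 overlapped, as did those of Sox6 and Sox2, so these neighbours are not ordered by the data. The ranges of Sox18 and Sox11 did not overlap but lay 0.700 TPM apart, and their deposited credibility intervals, as well as those of Sox7 and Sox5, did overlap. All other neighbours in the order were separated by both measures. The intervals of Sox11 and Sox17 nearly touched, with a lower bound of 40.422 TPM and an upper bound of 40.417 TPM in replicate 2. The members held 97.4% of the summed TPM of the 20 SOX genes in replicate 1 and 97.0% in replicate 2, out of sums of 318 and 341 TPM. The 10 other SOX genes had a median level of 0.0825 TPM. Because the members were chosen with earlier results of these data known, their high levels and large share may follow in part from that choice.

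**Figure D1:**
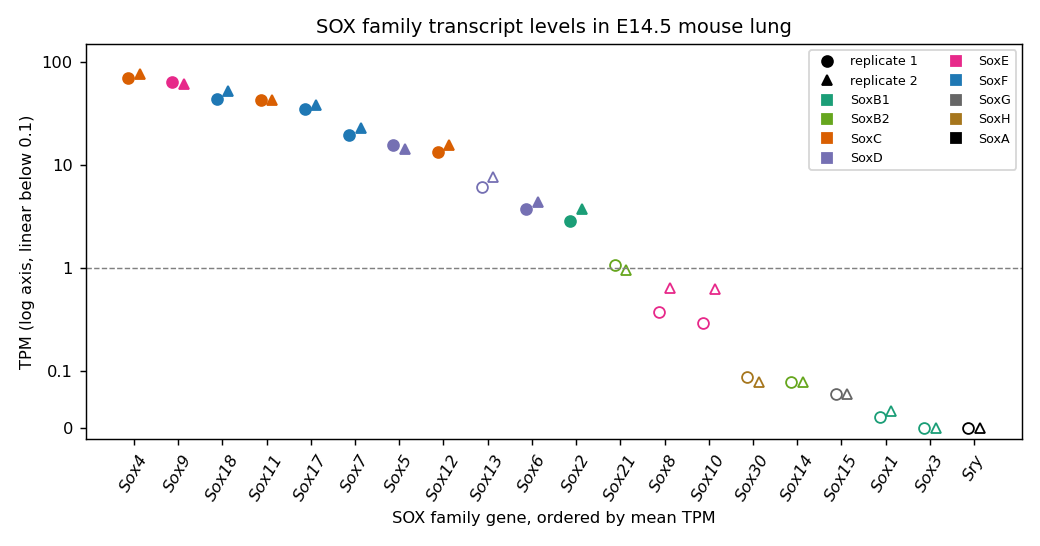
Level of the 20 SOX genes (TPM, log axis that turns linear below 0.1) in each library, circles for replicate 1 and triangles for replicate 2, coloured by subgroup. Filled symbols are the 10 members, which all lie above the dashed line at 1 TPM, and open symbols are the other 10 family genes, of which Sox13 alone lies above it in both libraries.

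Sox2, the only member of SoxB1 among the 10, was the lowest of them (ENSMUSG00000074637.6, chromosome 3 from 34650405 to 34652461, plus strand, 1 exon). Replicate 1 held 2.85 TPM and replicate 2 held 3.71 TPM, a mean of 3.28 ± 0.608 (SD, n = 2), from 150 and 196 counts. It ranked 11117 among the 21474 protein-coding genes, near their middle. The 1.25-fold higher value in replicate 2 rests on these few counts and had an adjusted p of 0.131 by the exact binomial test. The gene lies inside the long noncoding gene Sox2ot on the same strand, a gene not analysed here. The other SoxB1 genes, Sox1 and Sox3, which act with Sox2 in the neural tube, had 2 and 3 counts (Sox1) and 0 counts in either library (Sox3), where a count of 0 allows up to 3.

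Sox9, the SoxE factor of branching tips and of cartilage, was the second highest (ENSMUSG00000000567.5, chromosome 11 from 112782224 to 112787760, plus strand, 3 exons). Replicate 1 held 64.0 TPM and replicate 2 held 61.1 TPM, a mean of 62.5 ± 2.10 TPM (SD, n = 2), from 5762 and 5516 counts. Set within each library, Sox9 exceeded Sox2 by 22.5-fold in replicate 1 (95% counting interval 19.1 to 26.6) and by 16.5-fold in replicate 2 (14.3 to 19.1). The intervals nearly touched, and the lower ratio in replicate 2 came with a higher Sox2 level and a lower Sox9 level there. The other SoxE genes are those of neural crest and glia: Sox8 had 0.370 and 0.640 TPM and Sox10 0.290 and 0.630 TPM, below the 1 TPM needed to be tested. Sox9 therefore held nearly the whole SoxE sum of 64.7 and 62.3 TPM. The noncoding gene BC006965, which starts within 10 kb of Sox9 on the other strand, had 1.62 and 3.13 TPM in the 2 libraries with an adjusted p of 0.0842 by the exact binomial test.

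Sox4 and Sox11, the intronless SoxC genes, were the highest and the fourth highest. Sox4 (ENSMUSG00000076431.4, chromosome 13 from 28948919 to 28953713, minus strand) had 70.3 and 76.0 TPM in replicates 1 and 2, a mean of 73.1 ± 4.05 (SD, n = 2). Sox11 (ENSMUSG00000063632.6, chromosome 12 from 27334264 to 27342574, minus strand) had 42.8 and 42.4 TPM, a mean of 42.6 ± 0.247 and the smallest spread of the 10 members. Sox12 (ENSMUSG00000051817.8, chromosome 2 from 152393611 to 152398063, minus strand) had 13.5 and 15.7 TPM, a mean of 14.6 ± 1.52. The order Sox4, Sox11, Sox12 held in both libraries without overlap. Per length, Sox4 stood 1.64-fold above Sox11 in replicate 1 (95% counting interval 1.59 to 1.70) and 1.79-fold in replicate 2 (1.74 to 1.85). Those intervals do not overlap. By counts the 2 genes were close, at 7359.5 against 7830 in replicate 1 and 7989.9 against 7797 in replicate 2. The Sox11 transcript is 8311 nt long and that of Sox4 4795 nt. Sox12 lay 5.19-fold and 4.85-fold below Sox4.

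Sox4 overlaps a noncoding gene, Gm26735, on the opposite strand (chromosome 13 from 28943048 to 28951671), and the sources used here do not say whether counting used strand, so reads of the pair may be mixed. Gm26735 had 12.3 and 11.3 TPM from 699 and 644 counts. Its posterior SD was 66.1 counts in replicate 1 and 74.2 in replicate 2, identical to that of Sox4, whose counts were 7359.5 and 7989.9. Of 18 genes that overlap a member or start within 10 kb of one, 14 were in the deposited tables. Next to Sox6, the protein-coding gene 1110004F10Rik starts within 10 kb on the opposite strand without overlapping it, and had 6673.4 and 6592.6 counts against the 536 and 595 of Sox6. The antisense genes that overlap Sox5 had at most 3 counts in a library, and Sox6os, which overlaps Sox6, had 7 in each. Gm37587, which overlaps Sox17 on the opposite strand, had 29.2 and 56.3 counts. Its posterior SDs, 1.79 and 3.06 counts, were identical to those of Sox17. Those of the antisense gene Sox5os1, 0.98 and 2.1 counts, were likewise identical to those of Sox5. The use of strand was not tested.

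Sox5 and Sox6, the long SoxD proteins that pair through a coiled coil and carry no activation domain, differed in level by several fold when all transcripts were summed. Sox5 (ENSMUSG00000041540.12, chromosome 6 from 143828425 to 144781977, minus strand) had 15.5 and 14.2 TPM, a mean of 14.8 ± 0.912 (SD, n = 2), from 732 and 730.5 counts. Sox6 (ENSMUSG00000051910.9, chromosome 7 from 115470872 to 116038796, minus strand) had 3.70 and 4.41 TPM, a mean of 4.06 ± 0.502, from 536 and 595 counts. Their ratio by TPM was 4.18 in replicate 1 (95% counting interval 3.74 to 4.69) and 3.22 in replicate 2 (2.88 to 3.59). By counts the ratio was only 1.37 and 1.23. The third SoxD gene, Sox13, which was not among the 10, had 6.14 and 7.64 TPM, above Sox6 in both libraries.

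The transcripts divided that gap. Of the 14 deposited Sox5 transcripts, the 5 whose coding region holds the whole HMG box summed to 2.66 and 2.73 TPM in replicates 1 and 2, which was 17.2% and 19.2% of the gene's TPM but 57.6% and 58.8% of its counts. The other 9 are fragments, retained introns and noncoding forms, and short ones weigh heavily per length: Sox5-208, a noncoding transcript of 351 nt, took 34.6% and 26.5% of the gene's TPM from 30.1 and 21.2 counts. All 5 deposited Sox6 transcripts hold the box, where GENCODE M21 lists 16 for the gene. On box-holding transcripts alone, a comparison added after the data were seen, Sox6 had 3.70 and 4.40 TPM. It stood above Sox5 in both libraries, by 1.39-fold and 1.61-fold, the opposite of the order by gene. The box-holding set leaves out Sox5-211, a coding form annotated as incomplete, at 2.07 and 2.45 TPM. Counted with that set, it would put Sox5 above Sox6 again. The 2 box-holding Sox5 forms with the most reads were poorly told apart, since Sox5-201 went from 326 to 154 counts and Sox5-205 from 69.9 to 256 counts with posterior SDs between 56.8 and 93.6. Among Sox6 transcripts, Sox6-202 led with 46.2% and 39.4% of the gene's TPM and Sox6-203 followed with 23.1% and 32.1%.

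**Figure D2:**
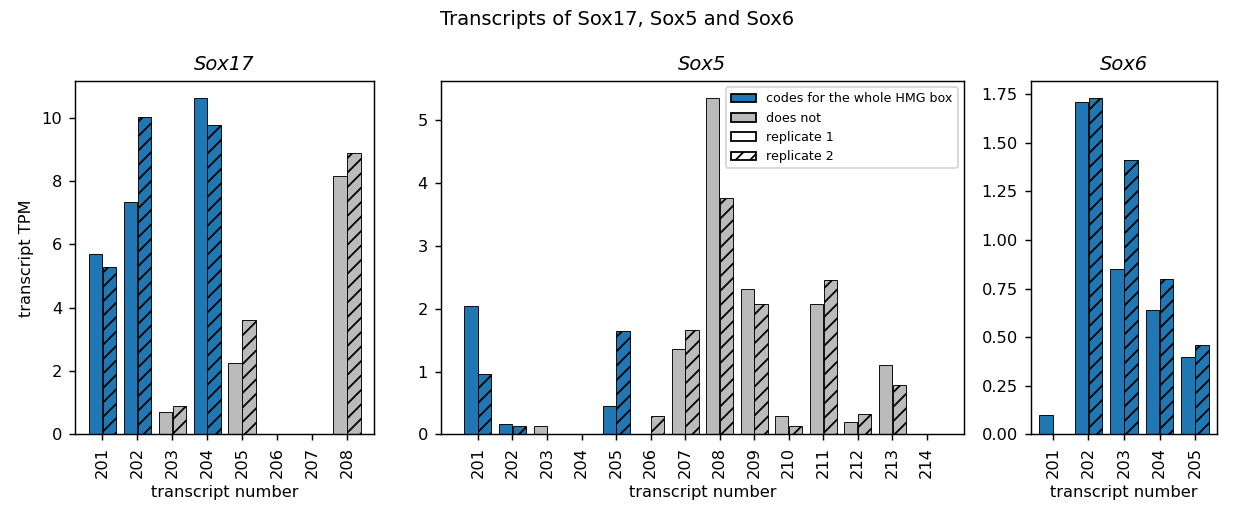
Transcript levels (TPM, each panel with its own linear axis from 0) of Sox17, Sox5 and Sox6, plain bars for replicate 1 and hatched bars for replicate 2. Blue bars are transcripts whose coding region holds the whole HMG box: they carry 17.2% and 19.2% of Sox5 TPM, 68.0% and 65.1% of Sox17 TPM and all of Sox6.

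The SoxF genes of vessel endothelium had levels of the same order. Sox18, a factor of lymphatic vessel formation (ENSMUSG00000046470.5, chromosome 2 from 181669836 to 181671640, minus strand), had 43.5 and 52.2 TPM in replicates 1 and 2, a mean of 47.8 ± 6.19 (SD, n = 2). Sox17, a factor of arteries and of early endoderm (ENSMUSG00000025902.9, chromosome 1 from 4490931 to 4497354, minus strand), had 34.8 and 38.5 TPM, a mean of 36.7 ± 2.61. Sox7, which acts beside them in vessels (ENSMUSG00000063060.5, chromosome 14 from 63943673 to 63950732, plus strand), had 19.4 and 22.7 TPM, a mean of 21.04 ± 2.32. The order Sox18, Sox17, Sox7 held in both libraries, and no 2 of these genes overlapped. Sox18 exceeded Sox17 by 1.25-fold (95% counting interval 1.16 to 1.35) and 1.36-fold (1.26 to 1.46), and exceeded Sox7 by 2.24-fold and 2.30-fold. All 3 values were higher in replicate 2, where SoxF summed to 113 TPM against 97.7 TPM in replicate 1.

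A form of Sox17 without the HMG box has been described in the mouse, and the tables divided Sox17 among box-holding and other transcripts. The 4 of 8 Sox17 transcripts with the whole box carried 68.0% of the gene's TPM in replicate 1 and 65.1% in replicate 2, or 23.7 and 25.1 TPM. Among these, Sox17-204, a form of 840 nt annotated as incomplete, held 30.5% and 25.4%. The complete forms Sox17-201 and Sox17-202 held 16.4% and 21.1% in replicate 1 and 13.7% and 26.0% in replicate 2. Sox17-207 had 0 counts in both libraries. Sox17-208, whose coding region of 291 codons lacks the box, held 23.4% and 23.1%, at 8.15 and 8.90 TPM from 341 and 374 counts. Its deposited credibility intervals, 6.15 to 9.74 TPM and 6.86 to 10.4 TPM, lay well above 0. Sox17-205, a retained intron, held 6.53% and 9.41%. On box-holding transcripts alone, again a comparison added after the data were seen, Sox17 stood at 24.4 ± 0.990 TPM (SD, n = 2), nearer to Sox7 at 21.04 ± 2.32 than to Sox18. That level includes the incomplete Sox17-204.

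By subgroup, SoxC held the largest share of the summed TPM of the 20 genes, 39.5% ± 0.299 (SD, n = 2), followed by SoxF with 32.0% ± 1.83, SoxE with 19.3% ± 1.44, SoxD with 7.82% ± 0.181 and SoxB1 with 0.999% ± 0.138. The order was the same in both libraries. Replicate 2 had the larger share of SoxF, 33.3% against 30.7%, and the smaller share of SoxE, 18.3% against 20.3%. Counts, which are not per length, gave another picture: SoxC took 58.4%, SoxE 19.7% and SoxF 15.1%. The deposited lengths were 8311 nt for Sox11 and 4795 nt for Sox4, against 1634 nt for Sox17 and 1620 nt for Sox18.

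**Figure D3:**
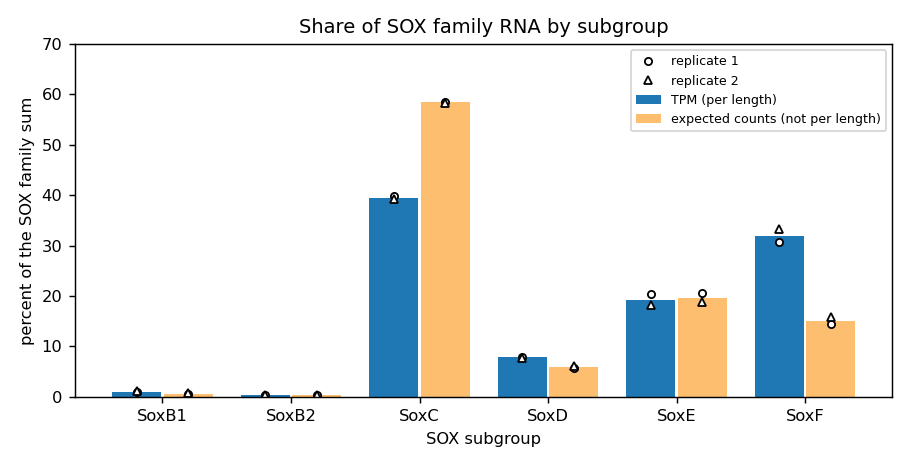
Share of the SOX family sum (percent) held by each subgroup from SoxB1 to SoxF, blue bars by TPM and orange bars by expected counts, with the bar at the mean of 2 libraries and a symbol for each library. SoxF holds 32.0% by TPM and 15.1% by counts, and SoxC 39.5% and 58.4%.

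The replicate comparison asks how far the level of each gene moved between the 2 libraries. Counts were scaled by TMM, and the 2 counts of a gene were set against each other by an exact binomial test, two-sided, with Benjamini-Hochberg adjustment over the 14870 genes at a mean of 1 TPM or more. A call needed both a ratio of 2-fold or more and an adjusted p below 0.05. None of the 10 members was called, and 0.356% of all genes were called higher and 0.780% lower in replicate 2 (1.14% in either direction). The exact binomial test without adjustment gave p under 0.05 for 7 of the 10 members, and edgeR's exact test with a common dispersion gave 0 with or without adjustment. That dispersion was estimated from the same 2 libraries, so the differences under test are part of it. The 0 therefore does not show that the members were stable. The member ratios spread little more than those of all genes: the median absolute log2 ratio was 0.11 for the members and 0.10 for all 14870 genes, whose central 95% ran from -0.70 to 0.59.

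Without the fold limit, 5 of the 10 members passed at an adjusted p under 0.05, against 22.5% of all genes (11% higher and 11.5% lower in replicate 2). By edgeR's exact test, 116 of the 14870 genes (0.78%) passed at any size. The exact binomial test allows for the sampling of reads and not for variation between animals, and the 5 members that passed it had at least 1314 counts in each library. Sox18 was higher in replicate 2 by 1.16-fold (log2 0.21, exact binomial adjusted p = 0.00058). Sox7 was higher by 1.12-fold (log2 0.17, exact binomial adjusted p = 0.0104) and Sox12 by 1.11-fold (log2 0.15, exact binomial adjusted p = 0.0263). Sox9 fell by 0.13 on the log2 scale (exact binomial adjusted p = 7.6e-05) and Sox11 fell by 0.07 (exact binomial adjusted p = 0.0180), but with libraries scaled by spike-ins both were higher in replicate 2, by 0.22 and 0.27. The 5 others did not pass: the log2 ratio was 0.32 for Sox2, 0.06 for Sox4, -0.06 for Sox5, 0.09 for Sox6 and 0.07 for Sox17, with exact binomial adjusted p-values of 0.131, 0.0662, 0.610, 0.521 and 0.465. Scaling by spike-ins moved the median of all genes by 0.34 and put all 10 members higher in replicate 2, Sox5 included, where 7 of 10 were higher with TMM.

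**Figure D4:**
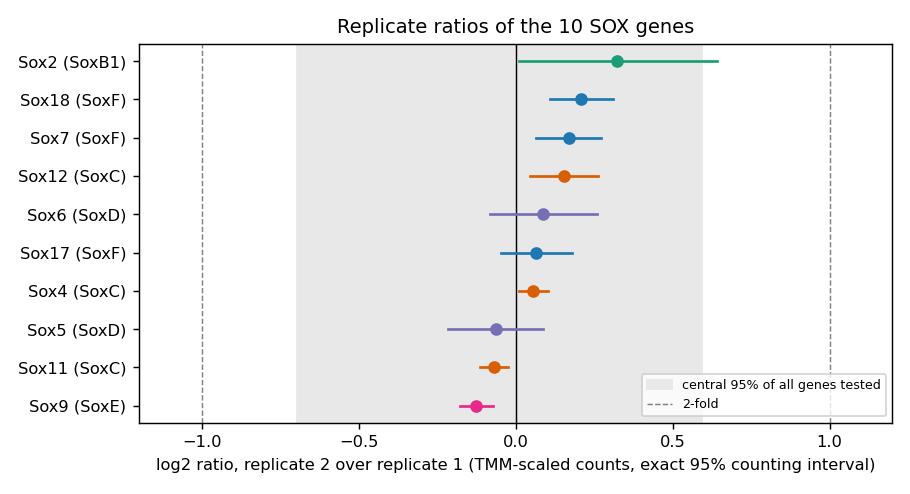
log2 ratio of replicate 2 over replicate 1 for the 10 members, from TMM-scaled counts, as points with exact 95% counting intervals. All lie within the grey band, the central 95% of all genes tested (-0.70 to 0.59), and inside the dashed 2-fold lines, and the negative values of Sox5, Sox9 and Sox11 turn positive when libraries are scaled by spike-ins.

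Lists of cell type markers give the setting of each subgroup, described here by their counts against the same shares of all genes. Those shares were 0.356% higher and 0.780% lower at 2-fold, and 11% higher and 11.5% lower without the fold limit. The counts without the fold limit are by the exact binomial test, which does not allow for variation between animals. List medians are with TMM scaling, and scaling by spike-ins would raise each by the same 0.34 as all genes. That is enough to turn every negative list median positive, that of proximal airway included, other than those of heart muscle (-3.35) and skeletal muscle (-1.29). Distal tip epithelium, where Sox9 is expressed, had 13 of 13 genes tested and none called at 2-fold. Without the fold limit 3 were higher and 1 lower, with a median log2 ratio of 0.01, and its leaders were the surfactant gene Sftpc at 2155 ± 40.1 TPM, the tip regulator Id2 at 364 TPM and the FGF target Etv5 at 185 TPM. Proximal airway epithelium, where Sox2 is expressed, had 7 of 12 genes tested, and 4 were lower and 1 higher without the fold limit, with a median of -0.31. The secretory cell gene Scgb3a2 led it, at 136 and 96.7 TPM (exact binomial adjusted p = 1.09e-17, edgeR exact test adjusted p = 0.524). The keratin genes of basal cells, Krt5 and Krt14, stood under 0.3 TPM in both libraries. Trp63, the basal cell factor gene of the same list, had 1.04 and 0.77 TPM from 92 and 61 counts.

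Cartilage markers, the setting of the Sox9, Sox5 and Sox6 trio, were low and present only in part. Of 17, 9 were tested, the list's median level was 4.31 TPM, and 3 (Matn1, Snorc and Ucma) had no count in either library. Acan, Col10a1, Comp, Matn3 and Runx2 also averaged under 1 TPM, with Acan at 0.08 and 0.04 TPM. The cartilage collagen Col2a1 had 23.0 and 28.3 TPM, the link protein gene Hapln1 24.9 and 25.6 TPM, and the collagen gene Col9a3 23.5 and 19.98 TPM. Without the fold limit 4 of the 9 were higher in replicate 2 and none lower, with a median log2 ratio of 0.09, while Sox9 went the other way under TMM scaling. Neural crest and glia, the setting of Sox10 and Sox8, had 5 of 10 genes tested, 1 higher and 1 lower without the fold limit, of which the receptor gene Erbb3 was highest at 15.8 and 18.4 TPM, and Foxd3, S100b, Tfap2a and Gfap were under 1 TPM.

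Vessel endothelium, the setting of SoxF, had all 18 genes tested and none called at 2-fold. Without the fold limit 6 were higher and 2 lower in replicate 2, and the list summed to 1180 and 1269 TPM. Its median log2 ratio was 0.03, against 0.21 for Sox18, 0.17 for Sox7 and 0.07 for Sox17. The leaders were the secreted factor gene Egfl7 at 213 and 252 TPM, the receptor partner gene Ramp2 at 217 and 226 TPM and the adhesion gene Esam at 117 and 122 TPM. The arterial list had 9 of 10 tested, 3 higher and 1 lower without the fold limit, and a median of -0.03. Dll4, Efnb2 and Notch1 were higher, and Hey1 was lower (log2 -0.43, exact binomial adjusted p = 9.59e-07). The lymphatic list had 8 of 8 tested, 1 higher and 3 lower, and a median of -0.09. The chemokine gene Ccl21a was the one that was higher, at 46.5 and 62.4 TPM. Prox1, Lyve1 and Reln were lower, with log2 ratios of -0.37, -0.14 and -0.54 (exact binomial adjusted p = 0.0150, 0.0396 and 0.00721). Neither list had a gene called at 2-fold.

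**Figure D5:**
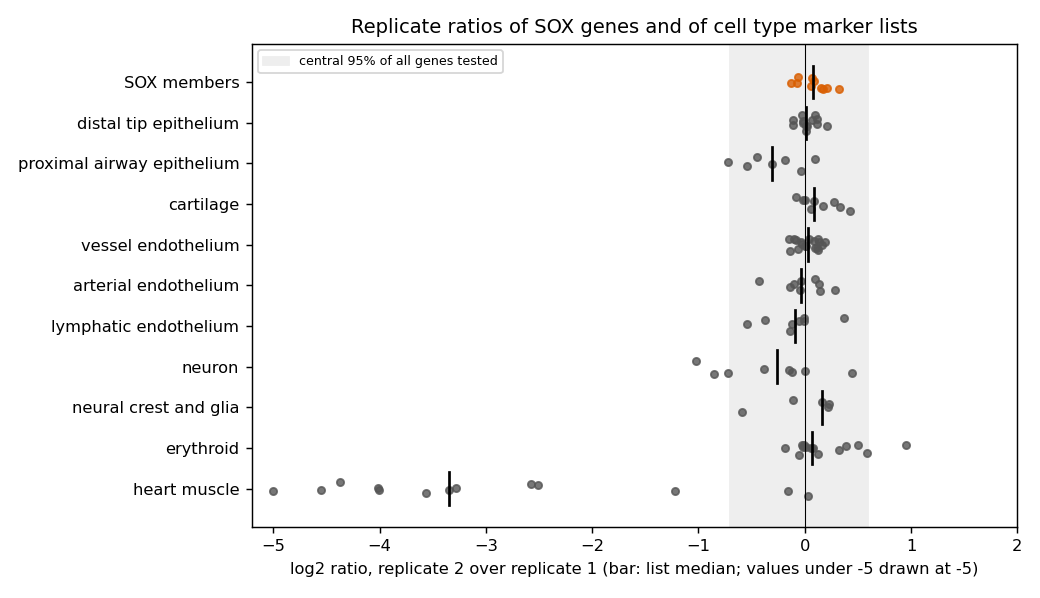
log2 ratio of replicate 2 over replicate 1 for each tested gene of the SOX members and of 10 marker lists, with a black bar at each list's median and a grey band for the central 95% of all genes tested. The SOX members (orange) lie inside the band, whereas heart muscle genes reach far below it, with a median of -3.35 (a value under -5 is drawn at -5), and the members' side of 0 depends on the scaling as given in the text.

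The other lists complete the comparison. Of 15 other HMG-box factors, all tested, 3 were higher and none lower without the fold limit and none was called, the most abundant being the chromatin proteins Hmgb1 at 1524 TPM on average and Hmgb2. Lung mesenchyme had 10 of 10 tested, with 1 higher and 4 lower, and smooth muscle 8 of 8, with none higher and 2 lower. Erythroid genes had 14 of 16 tested, with 4 higher and 2 lower, and none of these lists had a call at 2-fold with TMM scaling, while 1 erythroid gene was called higher with spike-in scaling. Neuron markers had 8 of 11 tested, with 3 lower, of which Prph was called at 2-fold, and skeletal muscle 5 of 10, with 3 called lower (Acta1, Ckm and Myl1). With spike-in scaling the calls lower in replicate 2 were 0 for neuron, 2 for skeletal muscle and 10 for heart muscle, and 4 liver genes were called higher. By edgeR's exact test the adjusted p was 0.557 for Prph, 0.114 for Acta1 and 0.580 for Apoa1. Esophagus and stomach had 1 of 10 tested and none passed, and liver 4 of 8, with 3 higher. In the whole set, 17 of the 146 companion genes tested were called at 2-fold, 11 of them in the heart list, against 1.14% of all genes tested.

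The remaining SOX genes were low or near 0. Sox13 was the exception, with a log2 ratio of 0.31 and an adjusted p of 0.0159 by the exact binomial test. Sox21, a SoxB2 gene of airway and neural epithelium, had 1.07 and 0.960 TPM. Sox14 had 2 and 3 counts, Sox15 had 1 in each library and Sox30 had 6 and 5. Sry, the gene that names the family, was likewise at 0 counts in each library, below a floor of 3.

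The protein-coding genes nearest to 4 members in level, by Euclidean distance of log2(TPM + 1) over the 2 libraries, were Grik5 and Gpr27 for Sox2, Gmfb and Slc29a1 for Sox9, Ift22 and Parg for Sox11, and Cbx6 and Gpatch8 for Sox17. The distances ran from 0.00285 (Ift22) to 0.0189 (Gpr27) on the log2 scale. With 2 libraries of 1 tissue, such likeness describes only 2 levels per gene.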

How the data were processed

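RNA of E14.5 mouse lung was measured in 2 libraries of 1 group. For each, the authors' deposited tables, 1 by gene and 1 by transcript, hold an expected count, TPM (per effective length, spike-ins included in the sum), posterior means and SDs, credibility bounds of unstated level, and each transcript's share of its gene in percent, per the file headers. The deposited read-me files name mm10 and GENCODE M4. For the aligner, the quantifier and the use of strand: not given in the sources used here. GENCODE M21 on GRCm38 gave names and coordinates by unversioned identifier (42462 of 43346 mouse genes matched), and some transcript models differ between the releases.

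Expected counts were rounded to whole numbers for tests, 0.5 was added for ratios, and TMM scaling used edgeR 4.0.16 (R 4.3.3). The exact binomial test (scipy 1.17.1) covered 14870 genes whose mean TPM was at least 1, with Benjamini-Hochberg adjustment. It was also run on simulated counts that held read sampling alone, which cannot show how it behaves with variation between animals. edgeR's exact test assumed a common dispersion estimated from both libraries (coefficient of variation 9.58%). DESeq2 1.42.0 gave alternative size factors. Counting intervals are 95% and cover counting error only. Other scalings, filters, fold limits and level units were tried, and each library was left out in turn. Named genes were the 20 SOX genes, the 3 highest and every called member of each marker list, neighbours within 10 kb, and the 2 genes nearest in level to Sox2, Sox9, Sox11 and Sox17. Markers outside that rule (Krt5, Krt14, Matn1, Snorc, Ucma, Acan, Col10a1, Comp, Matn3, Runx2, Foxd3, S100b, Tfap2a and Gfap) were named for their low values, after these were seen. Trp63, also outside it, was named as a further basal cell gene. Dll4, Hey1, Prox1, Lyve1 and Reln, outside it too, were named because they passed without the fold limit. The members and lists were chosen with earlier results of these data known.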

Additional observations from a re-analysis of the deposited data

How the results depend on the processing

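No paired analysis was possible because the series has 1 group. The count of 0 members called at 2-fold held under DESeq2, total-count and spike-in scaling, no filter, a mean of 5 TPM or more, a 1.5-fold limit and edgeR's exact test, and became 5 without a fold limit. Spike-in scaling turned the log2 ratio of Sox5 to 0.28, of Sox9 to 0.22 and of Sox11 to 0.27. TPM taken over mouse genes alone moved the median member level from 28.9 to 32.0 TPM. Taken by expected counts, the SoxC share was 58.4%, SoxD 5.89% and SoxF 15.1%, and box-holding transcripts were 58.2% of Sox5. On box-holding transcripts, an alternative added after the data were seen, the Sox5 to Sox6 ratio fell from 3.70 to 0.670 and the Sox5 level was 2.70 TPM. These values leave out the coding forms of Sox5 annotated as incomplete. Without a fold limit 66 companion genes passed, against 17. A log2 ratio was taken as unchanged if it kept its sign, whatever its size. Counts of calls were taken as unchanged within 1.5-fold, and other values within the SD of the 2 libraries. By these rules 120 of 140 alternative values were unchanged, 17 moved and 3 reversed. Each library alone kept every value within the spread, which with 2 libraries follows from how it is computed. Sox2, with 150 and 196 counts, is the member whose precision the depth limits most.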
